A study of Mus musculus with 2 samples.

Results

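Mir431, Mir433, Mir127, Mir434 and Mir136 are 5 microRNA genes that lie on mouse chromosome 12 on the strand opposite the protein-coding gene Rtl1. They were selected by the symbol that GENCODE release M21 gives to each Ensembl identifier, and all 5 have a row among the 2202 microRNA genes of both deposited tables. The rule uses no measured value. Small RNA, labelled as below 30 in size, had been sequenced from the hippocampus of female B6CASTF1/J mice, an F1 cross of C57BL/6J and CAST/EiJ, at 14 days of age. The tissue label names a layer of hippocampus without saying which. There was 1 group with 2 biological replicates, no treatment and no engineered allele, and each replicate was labelled with 3 females, so each library stood for a pool. Both pools were of the same cross, sex and age, and the counts do not separate the parental alleles.

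MicroRNAs are cut from hairpins in longer transcripts, and 1 strand of the duplex is loaded into an Argonaute protein, where bases 2 to 8 (the seed) lead the pairing with target messenger RNAs. The Dlk1-Dio3 region is imprinted: protein-coding genes such as Dlk1 and Rtl1 are expressed from the paternal chromosome, and the long noncoding RNAs and microRNAs from the maternal one. Rtl1 encodes a protein derived from the Gag-Pol part of a retrotransposon and is needed for the fetal vessels of the mouse placenta. Because these microRNAs are transcribed from the opposite strand of the Rtl1 coding sequence, they match the Rtl1 messenger RNA without mismatch, and in mouse several of them guide its cleavage. Outside this pairing, miR-127 is known from mouse placenta and brain, miR-431 from regenerating mouse muscle and sensory axons, and miR-433 and miR-136 from brain.

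The 10 mature sequences of these genes are shown with the seed in capitals, because a reader can check from them that no seed is shared. All are on the plus strand of chromosome 12 in RefSeq's GRCm38.p6 tables, 5′ to 3′.
mmu-miR-431-5p: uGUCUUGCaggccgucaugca
mmu-miR-431-3p: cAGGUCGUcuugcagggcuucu
mmu-miR-433-5p: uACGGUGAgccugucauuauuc
mmu-miR-433-3p: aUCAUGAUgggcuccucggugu
mmu-miR-127-5p: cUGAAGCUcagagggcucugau
mmu-miR-127-3p: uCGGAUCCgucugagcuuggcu
mmu-miR-434-5p: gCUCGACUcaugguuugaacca
mmu-miR-434-3p: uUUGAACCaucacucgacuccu
mmu-miR-136-5p: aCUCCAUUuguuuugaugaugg
mmu-miR-136-3p: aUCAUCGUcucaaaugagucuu

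The 10 sequences had 10 different seeds, and none of these seeds occurred in any other of the 1679 mature mouse microRNA names in the RefSeq table. The 5 genes therefore share a locus and an orientation but no seed family. Their GC content ran from 36.4% in both arms of miR-136 to 59.1% in miR-431-3p and miR-127-3p. Among the 5 hairpins, the longest run of bases common to any pair was 7, and no hairpin shared more than 12 bases with a microRNA gene located elsewhere. That run is shorter than any of the mature sequences, so none of the 5 genes was treated as sharing reads with a copy elsewhere.

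Each of the 10 mature sequences had its exact reverse complement in the Rtl1 transcript, at 1 place each. A pair of these Rtl1 sites is shown for the most and the least abundant member, as DNA on the minus strand with the bases that face the seed in capitals. The first is at chr12:109592888-109592909 and the second at chr12:109595331-109595352.
Rtl1 site of miR-127-3p: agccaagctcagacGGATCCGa
Rtl1 site of miR-136-5p: ccatcatcaaaacaAATGGAGt
All 5 hairpins lay inside the Rtl1 coding sequence (5232 bases without the stop codon) in the second of the 2 exons of the annotated transcript. Counted from the A of the Rtl1 start codon, Mir136 covered bases 16 to 77, Mir434 bases 805 to 898, Mir127 bases 2489 to 2558, Mir433 bases 3566 to 3689 and Mir431 bases 4867 to 4957. The microRNA strand is read in the other direction, so Mir431 comes first and Mir136 last. From the first to the last base the group spanned 4942 bases, with gaps between neighbours of 727 to 1590 bases.

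The hairpin of Mir127 (ENSMUSG00000070076.2, chr12:109592846-109592915) is shown with its mature arms in capitals, since this gene carried most of the reads.
Mir127 hairpin: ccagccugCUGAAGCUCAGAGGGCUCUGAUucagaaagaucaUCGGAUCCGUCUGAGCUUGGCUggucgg
The hairpin of Mir434 (ENSMUSG00000070133.1, chr12:109594506-109594599) is shown with an internal repeat in capitals, since it was the longest repeat within any of the 5 hairpins.
Mir434 hairpin: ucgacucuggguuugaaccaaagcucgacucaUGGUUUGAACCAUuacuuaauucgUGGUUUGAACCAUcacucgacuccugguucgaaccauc
Mir127 was 70 bases long with a predicted folding energy of -35.1 kcal/mol, the lowest per base of the 5 at -0.501. Mir434 held a 13-base run at 2 places, 1 reaching into each arm, and folded at -37.4 kcal/mol over 94 bases. Mir431 (ENSMUSG00000070080.1, chr12:109590447-109590537), Mir433 (ENSMUSG00000070072.1, chr12:109591715-109591838) and Mir136 (ENSMUSG00000104858.1, chr12:109595327-109595388) folded at -43.4, -44.8 and -28.2 kcal/mol over 91, 124 and 62 bases. Predicted energies per base did not follow the order of the levels given next, since Mir433, the second most abundant, was the weakest at -0.361. Over the whole hairpin, Mir433 was instead the strongest at -44.8 kcal/mol, and Mir136, the least abundant, the weakest at -28.2 kcal/mol. A link between energy and level was not tested.

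Levels are in CPM, a gene's sense-strand reads per 1000000 such reads on all microRNA genes of the library. Those totals were 4764797 in replicate 1 and 2852269 in replicate 2. Abundance here means this level in reads. In both libraries Mir127 stood above the other 4 and Mir136 far below them, although all 5 lie within 4942 bases. Mir127 gave 52526 CPM in replicate 1 and 81114 CPM in replicate 2, from 250275 and 231358 reads. Mir433 gave 21775 and 22614 CPM, from 103753 and 64500 reads. Both were thus among the 10 most abundant of 2202 microRNA genes in each library by assigned reads. Mir127 was at rank 5 in replicate 1 and rank 2 in replicate 2, and Mir433 at rank 10 in both. Multi-mapping reads, 40.8% of all reads in replicate 1 and 37.1% in replicate 2, are outside these ranks and the shares below. Genes with copies elsewhere may therefore be ranked too low. Mir431 gave 2334 and 2399 CPM, from 11121 and 6844 reads. Mir434 gave 2205 and 2615 CPM, from 10507 and 7459 reads. These 2 genes lay at ranks 62 to 74, Mir431 above Mir434 in replicate 1 and below it in replicate 2. Mir136 gave 88.6 CPM (exact 95% counting interval 80.3 to 97.4) and 93.6 CPM (82.7 to 105.5), from 422 and 267 reads. It was detected in each library but ranked only 215 and 214.

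Over the 2 libraries the means were 66820 ± 20215 CPM (SD, n = 2) for Mir127, 22194 ± 593 for Mir433, 2410 ± 290 for Mir434, 2367 ± 46.3 for Mir431 and 91.1 ± 3.57 for Mir136. The order Mir127, Mir433, the pair Mir434 and Mir431, then Mir136 held in both libraries, and the libraries of neighbours in this order did not overlap except within that pair. Mir127 exceeded Mir433 by 3.01 times on the mean level, and Mir136 by 734 times. These are ratios of reads, and whether library preparation captured different microRNAs equally was not tested. The highest and lowest CPM differed by 1.54 times for Mir127, by 1.19 times for Mir434 and by at most 1.06 times for the other 3. A count belongs to a whole precursor gene, so the products of the 5p and 3p arms are not told apart. In bulk tissue a smaller number of cells of a type and less RNA per cell cannot be told apart either.

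**Figure D1:**
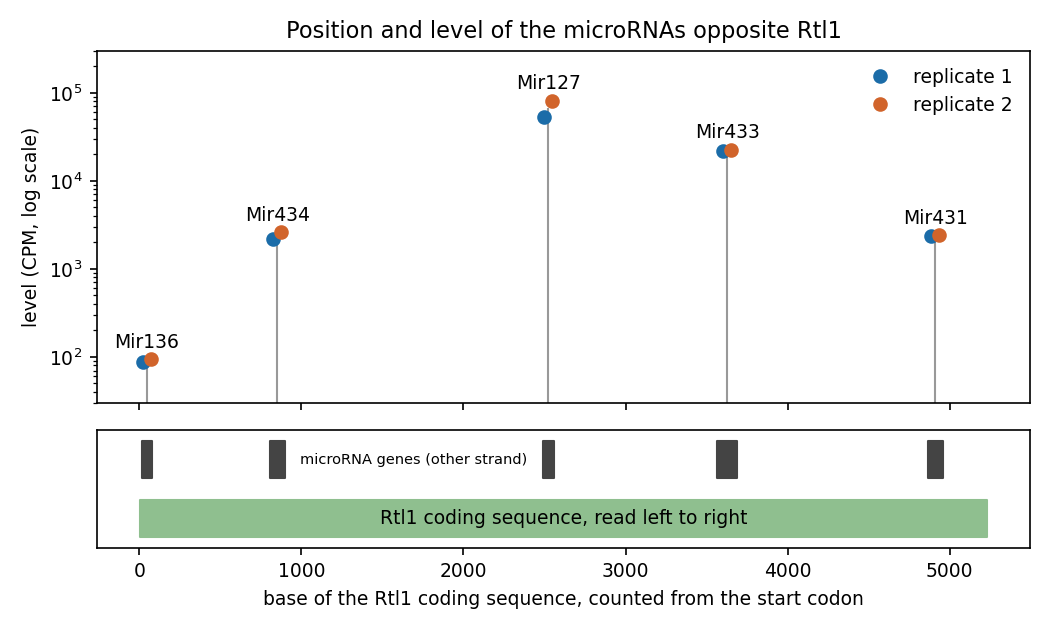
Level in CPM (log scale, upper panel) of each microRNA gene in replicate 1 (blue) and replicate 2 (orange) by its position in bases from the Rtl1 start codon, with vertical lines marking that position, above a map of the microRNA genes (dark grey) and the Rtl1 coding sequence (green). Mir127 and Mir433 have the highest points, at 21775 to 81114 CPM, and Mir136, beside the start codon, the lowest at 88.6 and 93.6 CPM.

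Together the 5 genes held 7.89% (counting interval 7.87 to 7.92) of all assigned reads in replicate 1 and 10.9% (10.8 to 10.9) in replicate 2, a mean of 9.39% ± 2.11 (SD, n = 2). Within this total Mir127 held 66.5% (66.4 to 66.7) in replicate 1 and 74.5% (74.4 to 74.7) in replicate 2. Mir433 held 27.6% (27.4 to 27.7) and 20.8% (20.6 to 20.9). The remaining genes were small, with Mir431 at 2.96% and 2.20%, Mir434 at 2.79% and 2.40%, and Mir136 at 0.112% and 0.0860%. With Mir127 set aside, the other 4 genes held 2.64% (2.63 to 2.65) and 2.77% (2.75 to 2.79) of all assigned reads. Most of the difference in the joint share therefore lay in Mir127. Within these 4, Mir433 held 82.5% (82.3 to 82.7) and 81.6% (81.3 to 81.8), Mir431 8.84% (8.68 to 9.0) and 8.66% (8.46 to 8.85), Mir434 8.35% (8.20 to 8.51) and 9.43% (9.23 to 9.64), and Mir136 0.335% (0.304 to 0.369) and 0.338% (0.298 to 0.381).

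Ratios between members within a library do not depend on how libraries are scaled. Mir433 reads outnumbered Mir431 reads by 9.33 (9.15 to 9.51) in replicate 1 and by 9.42 (9.19 to 9.66) in replicate 2. The ratio of Mir433 to Mir136 was 246 (223 to 271) and 242 (214 to 273), and that of Mir431 to Mir136 was 26.4 (23.9 to 29.1) and 25.6 (22.7 to 29.1). These 3 ratios had overlapping counting intervals, and on the log2 scale they differed between the pools by -0.04 to 0.01. Mir434 stood apart a little: it had 0.945 reads per Mir431 read (0.920 to 0.970) in replicate 1, and 1.09 (1.05 to 1.13) in the other library. Mir127 stood further apart, with a ratio to Mir433 of 2.41 (2.39 to 2.43) in replicate 1 and 3.59 (3.56 to 3.62) in replicate 2. Its intervals against the other 4 genes did not overlap between the pools in any case. Of the 10 pairs, intervals overlapped in 4, and none of those 4 held Mir127. The share of non-overlap over other pairs of genes was not computed. Deep counts give narrow intervals. Of genes averaging 1000 or more reads, 93.6% passed the exact binomial test below as different between the pools. Overlap of intervals was not a test of equal ratios, and the intervals of ratios to Mir136 are wide because of its few reads.

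**Figure D2:**
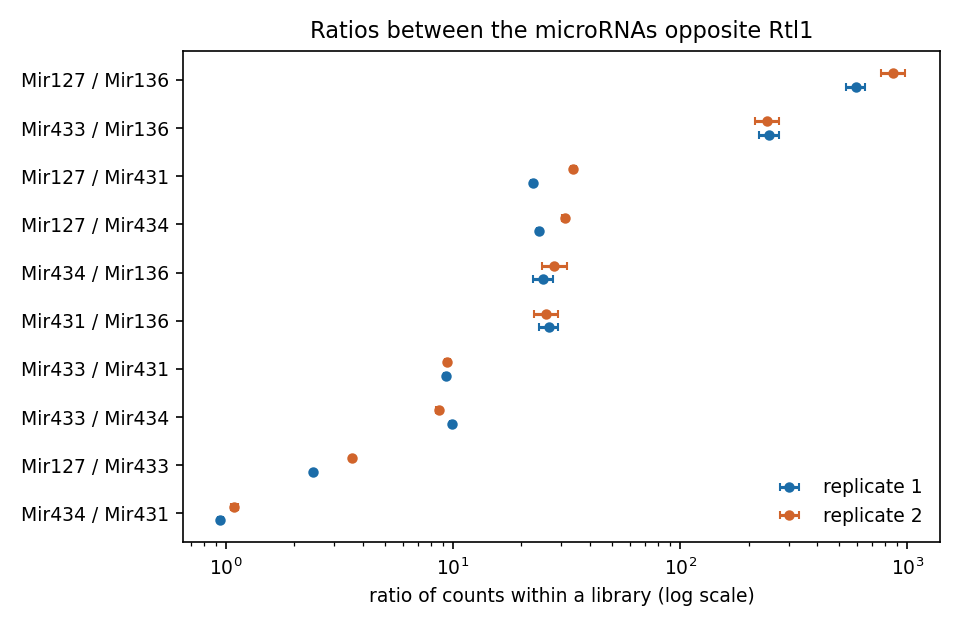
Ratio of read counts within a library (log scale) for each of the 10 pairs of microRNA genes, in replicate 1 (blue) and replicate 2 (orange), with exact 95% counting intervals. The points of Mir433 to Mir431 coincide near 9.33 and 9.42, while the ratios with Mir127 as numerator lie further right in replicate 2, for instance 2.41 and 3.59 against Mir433.

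Between the pools, Mir127 differed most among the 5 genes. The log2 ratio of replicate 2 to replicate 1, with TMM-scaled library sizes, was 0.75 (counting interval 0.74 to 0.76) for Mir127, 0.37 (0.33 to 0.41) for Mir434, 0.18 (0.16 to 0.19) for Mir433 and 0.16 (0.12 to 0.21) for Mir431. These 4 passed the exact binomial test as higher in replicate 2, Mir431 with an adjusted p of 1.03e-12. Mir136, at 0.20 (-0.02 to 0.43), did not pass, with an exact binomial adjusted p of 0.106 over all genes tested. The test compares the reads of these 2 libraries and covers counting error alone, and with 1 library per pool a difference between animals and a difference between library preparations cannot be told apart. Over all 450 genes tested, 32.9% were higher in replicate 2 and 32% lower, 64.9% in all. In the 173 deeper genes, those averaging 1000 or more reads, which include the 4 that passed here, 46.8% were higher and 46.8% lower. A call in either direction was thus the outcome for 93.6% of genes at that depth, and the 4 calls are read against that share.

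The median log2 ratio of the 5 genes was 0.20, beside 0.01 over all 450. In the 173 deeper genes, the median size of the log2 ratio in either direction was 0.38 and the SD 0.86. Mir431, Mir433 and Mir434 lay below that median size, and Mir127 above it, with 40 of the 173 genes (23.1%) further from 0 than Mir127. None of the 5 exceeded 2-fold, beside 22% of all genes tested and 16.2% of the 173 deeper genes. With only 5 genes, this is not read as steadiness. With total counts as library sizes every ratio was lower by 0.12. Then Mir431, at 0.040, no longer passed, with an exact binomial adjusted p of 0.104, while Mir433, at 0.05, Mir434, at 0.25, and Mir127, at 0.63, did.

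**Figure D3:**
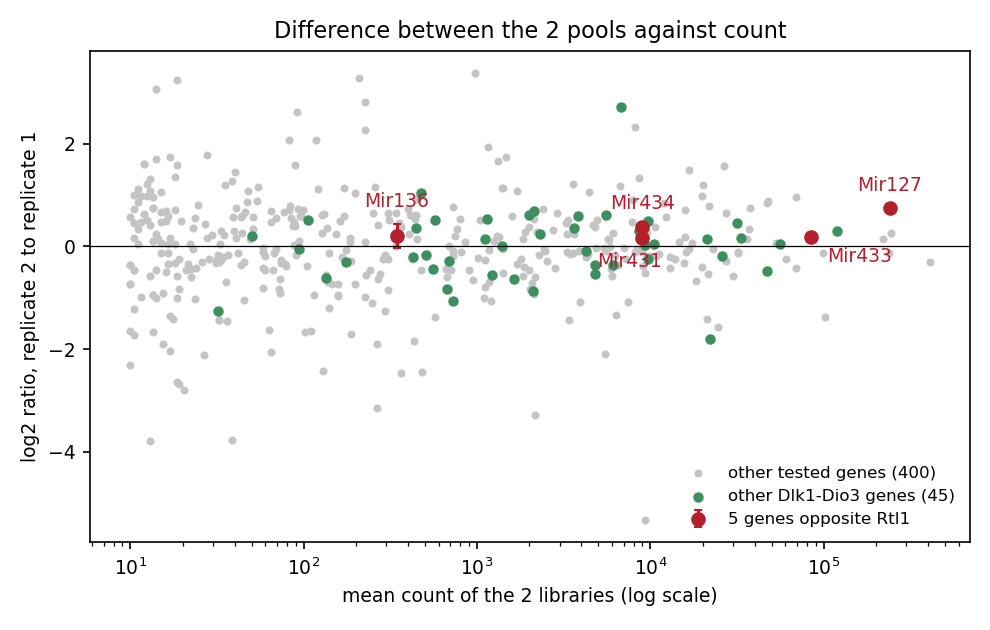
Log2 ratio of replicate 2 to replicate 1 (TMM-scaled) against the mean count of the 2 libraries (log scale) for all tested genes (grey), other listed Dlk1-Dio3 genes (green) and the 5 genes opposite Rtl1 (red, with exact 95% counting intervals). Mir127 lies at 0.75 and the other 4 red points between 0.16 and 0.37, inside the cloud of genes of like count.

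Neuronal marker microRNAs were present, as the tissue label would have it, and the summed levels of several other marker lists differed between the pools. Neuronal markers had 9 of 12 genes detected (at least 10 reads in both libraries) and a summed share of 2.55% and 2.59% of reads in replicates 1 and 2. The list holds several copies each of Mir124a and Mir9, and multi-mapping reads are outside the sum. Mir124a-1 had only 10 and 18 reads, and Mir9-1 109 and 47, so the neuronal sum may be too low. The same limit holds for other listed genes with copies, such as Mir133a-1 and Mir133a-2. This near-equal sum held genes with log2 ratios in opposite directions. Mir128-1, Mir128-2 and Mir137 passed as lower in replicate 2, at -1.42, -1.09 and -0.53. Mir138-1, Mir138-2 and Mir132 passed as higher, at 1.496, 1.33 and 0.796. Choroid plexus and ciliated cell markers had 4 of 7 detected and 0.395% and 0.119%, with Mir449b at 0. Endothelial markers had 1 of 2 detected and 0.997% and 1.69%, smooth muscle 2 of 2 and 0.600% and 0.348%, and oligodendrocyte 3 of 4 and 0.193% and 0.320%. The oligodendrocyte rise lay mostly in Mir219a-2, with a log2 ratio of 1.17. Mir219a-1 also passed as higher, at 0.67, while Mir338, at -0.05, did not pass. Red blood cell markers had 3 of 3 and 0.0290% and 0.0722%, and other epithelium 8 of 10 and 0.0173% and 0.0543%. The red blood cell rise lay in Mir451a, with a log2 ratio of 1.73. Mir144 and Mir486, at -0.21 and -0.17, did not pass. In other epithelium, Mir203 passed as lower in replicate 2, at -0.74, against the direction of the sum. Astrocyte markers had 4 of 4 and 0.169% and 0.183%, and immune markers 4 of 4 and 0.114% and 0.0930%. Muscle had 1 of 5 and 0.00743% and 0.00344%, with Mir1a-1, Mir133a-1 and Mir133a-2 at 0, and the liver marker Mir122 had 0.00411% and 0.00256%. The part of these differences, and of the difference in depth, in the ratio of Mir127 was not tested.

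On the strand of Rtl1 itself no small RNA read was counted at any of the 5 loci. All 5 genes had 0 opposite-strand counts in both libraries, which allows up to 0.630 CPM in replicate 1 and 1.05 CPM in replicate 2. This matters most at Mir136, whose whole hairpin lies inside Mir3071 (ENSMUSG00000070129.2, chr12:109595318-109595397), a microRNA gene annotated on the Rtl1 strand. Mir3071 had 0 sense reads in both libraries, and its 422 and 267 opposite-strand counts equalled the sense counts of Mir136. Without strand, Mir136 and Mir3071 both stood at 0, so the level of Mir136 exists only in the stranded counts. Mir432 (ENSMUSG00000087855.1, chr12:109594956-109595030), which lies between Mir434 and Mir136 on the same strand and is not among the 5, had 0 reads on either strand in both libraries. The 5 genes were thus the only detected ones among the annotated microRNA genes that overlap Rtl1.

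Along the wider Dlk1-Dio3 region, Mir127 was the most abundant and Mir433 the third of 57 listed genes. The other 52 listed genes comprised 8 on the Meg3 side, 2 within the group's own span, 4 between Mir136 and Mir379, 37 from Mir379 to Mir410, and 1 beyond. The list does not hold every annotated gene: 8 more rows lie in the interval, of which only Mir666, inside the array at 1543 and 1327 CPM, was detected. The 5 genes held 39.0% (38.9 to 39.1) of the reads of the list in replicate 1 and 47.8% (47.7 to 47.9) in replicate 2, a mean of 43.4% ± 6.24 (SD, n = 2). As shares of all assigned reads, the 37 listed Mir379 to Mir410 genes held 7.76% (7.73 to 7.78) and 7.56% (7.52 to 7.59) and the Meg3-side genes 3.54% (3.52 to 3.55) and 3.83% (3.81 to 3.85). With every annotated row between Mir379 and Mir410 counted, Mir666 included, the array held 7.91% (7.89 to 7.94) in replicate 1 and 7.69% (7.66 to 7.72) in replicate 2. Beside that full array, the 5 genes at 7.89% (7.87 to 7.92) had an overlapping counting interval in replicate 1, and at 10.9% (10.8 to 10.9) they held more reads in replicate 2. Of the 45 other listed genes tested, 20 passed the exact test as higher in replicate 2 and 17 as lower, with a median log2 ratio of 0.03 and a range of -1.80 to 2.71. Mir666 passed as lower, at -0.10 (-0.15 to -0.04), which makes 20 higher and 18 lower of 46. The 5 genes opposite Rtl1 spanned 0.16 to 0.75.

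The leading gene of each neighbouring block differed in its ratio. Mir770, from the Meg3 transcript, stood at 31681 ± 2628 CPM (SD, n = 2) with a log2 ratio of 0.29 (0.28 to 0.30). Mir382, leading the array, stood at 14621 ± 553 CPM with 0.05 (0.03 to 0.06). Mir370, leading between Mir136 and Mir379, gave 8043 CPM in replicate 1 and 2116 CPM in replicate 2, with -1.80 (-1.84 to -1.77). The nearest detected gene downstream, Mir341, 16111 bases beyond Mir136, gave 2152 and 2420 CPM and 0.29 (0.25 to 0.34). The nearest upstream, Mir3070b, 1766 bases before Mir431, gave 25.6 and 22.8 CPM, did not pass at -0.05 (-0.50 to 0.40), and its count is uncertain, as a run of 20 or more bases also occurs in Mir3070a. Levels differed widely between genes of the same strand, on both sides of the group as well as inside it.

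**Figure D4:**
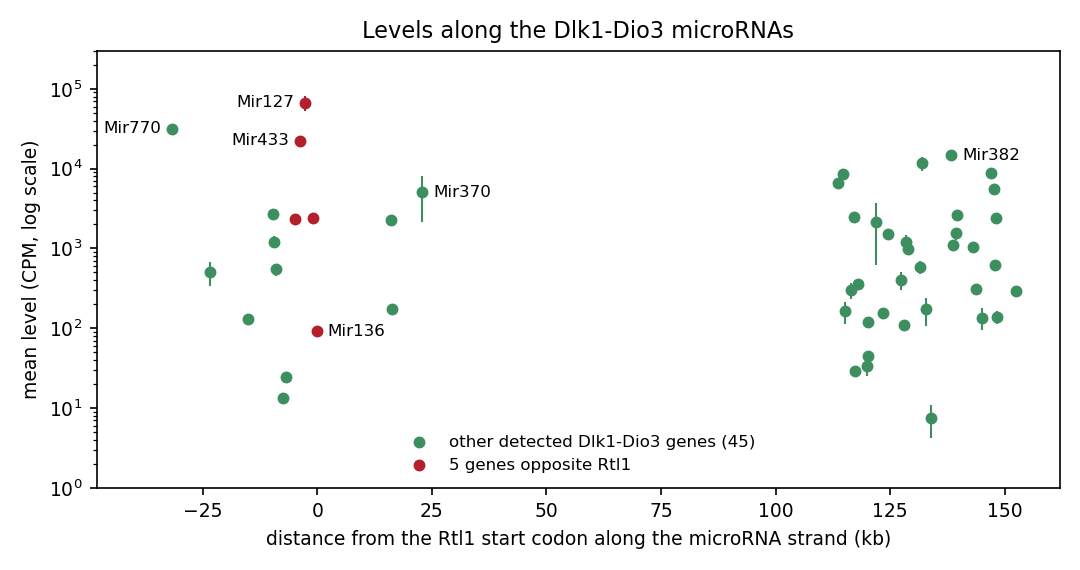
Mean level in CPM (log scale) of the detected microRNA genes of the Dlk1-Dio3 list against distance in kb from the Rtl1 start codon along the microRNA strand. The 5 genes opposite Rtl1 are red and 45 other listed genes green, with vertical lines joining the 2 libraries. Mir127 is the highest point at 66820 CPM, and the red points span from there to Mir136 at 91.1 CPM.

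The genes closest to each member in log2(CPM + 1) over the 2 libraries were sought among the deeper genes averaging 1000 or more reads. The distance is Euclidean over only 2 points, so it mostly reflects level. Closest to Mir127 was Mir99a on chromosome 16, at 50465 and 77371 CPM in replicates 1 and 2 and a distance of 0.0893, followed by Mirlet7i on chromosome 10 at 0.343. Mir99a, like Mir127, was higher in replicate 2, but a gene chosen for lying this close in both libraries must share that direction. Closest to Mir433 were Mirlet7d at 0.355 and Mir99b at 0.647, neither on chromosome 12. Closest to Mir431 were Mir369, at 0.103, and Mir341, at 0.117, both from the Dlk1-Dio3 list. Closest to Mir434 were Mir341, also at 0.117, and Mir17 at 0.134. Mir136 is below the count limit of the candidates, and its closest, Mir505 at 2.13 and Mir1306 at 2.18, were far from its level.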

How the data were processed

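MicroRNA libraries from 2 pools of mouse hippocampus were analysed. For each library the authors deposited raw, unnormalized counts by microRNA gene, on assembly mm10 (GRCm38) with annotation release M21, per the text deposited with them. For the aligner and counter, the name is not given in the sources used here. The strand column with more reads on gene rows served as sense. The lines that name no gene stayed out of library sizes and tests, which left 36.1% of 13195465 reads in replicate 1 and 36.4% of 7838361 in replicate 2. Multi-mapping reads were 40.8% and 37.1%, and unmapped reads 17.1% and 20.6%.

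CPM was computed here over all gene rows of the deposited counts. Pool ratios used library sizes scaled by TMM (edgeR 4.0.16, R 4.3.3) for the 450 genes with 20 or more reads over both libraries, a two-sided exact binomial test per gene and Benjamini-Hochberg adjustment over all 450 at 0.05. This test was first tested on simulated data with known fold changes and counting noise alone. That setting lacks any other difference between pools, so it does not show how the test behaves beyond counting error. Intervals are exact Clopper-Pearson at 95% and cover counting error only, since PCR reads without molecular identifiers are not independent molecules. Hairpins were folded with RNAfold 2.7.2, other work used Python 3.11.15 with scipy 1.17.1, and DESeq2 1.42.0 size factors served as 1 alternative. The members and lists were chosen with earlier results of these data known. Named beside the members were the genes overlapping them or Rtl1, the nearest detected gene on each side, the leading gene of each neighbouring block and the 2 genes closest in level. Sequences are from RefSeq on GRCm38.p6, where all 5 members matched by symbol. The M21 table spells 2 listed genes, Mir3070-1 and Mir3070-2, as Mir3070a and Mir3070b, matched by RefSeq synonym.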

Additional observations from a re-analysis of the deposited data

How the results depend on the processing

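Of the alternative values, 93 were labelled as staying within the main call or spread, 17 moved and 1 lost its call, and none changed direction. The 93 include every value without 1 library, which lies within the SD of 2 libraries by construction. They also include counts of calls that shifted. With total counts, 3 members passed as higher instead of 4, and over all genes 127 passed as higher and 168 as lower, beside 148 and 144. With total counts as library sizes, the log2 ratio of Mir431 was 0.040 and no longer passed. Over the alternatives Mir127 ranged from 0.63 to 0.78, Mir434 from 0.25 to 0.40, Mir433 from 0.05 to 0.21 and Mir136 from 0.08 to 0.24, Mir136 with exact binomial adjusted p from 0.0582 to 0.550. With all reads as denominator, Mir431 was 858 CPM, Mir433 8046, Mir127 24241, Mir434 874 and Mir136 33.0, and the joint share 3.41%. Without Mirlet7b, the most abundant other gene, Mir431 was 2640.3 CPM, Mir433 24757, Mir136 102, Mir127 74289 and Mir434 2685. With the 5 genes left out of the denominator, Mir431 was 2613 CPM, Mir433 24508, Mir136 101, Mir127 74023 and Mir434 2664. In the unstranded column, Mir431 was 2526 CPM, Mir433 23688, Mir127 71325 and Mir434 2572. Mir136 was 0 there, as was its share among the 5. In these last 3 settings Mir127 and Mir434 were counted as unmoved only because their SD over the 2 libraries is larger. These level shifts follow from the denominator or strand rule itself. Counting every gene row of the Dlk1-Dio3 interval, an alternative chosen after seeing the data, moved the mean share of Mir379 to Mir410 from 7.66% to 7.80%, almost all of it Mir666, and gave the 5 genes 43.1% of the region's reads. Leaving out either library gives the other library's value, so the joint share ranged from 7.89% to 10.9%. No paired analysis was possible because there is 1 group. Depth limits Mir136, whose 422 and 267 reads leave its ratio unresolved.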
